A study of Mus musculus with 2 samples.

Results

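Prdm16 was described here across its whole length, from 5 kb upstream of its start site to the end of its last exon, in mouse embryonic fibroblasts (MEFs) with and without oestrogen receptor β (ERβ). The gene (ENSMUSG00000039410.9) lies on the minus strand of chromosome 4, from 153690234 to 154010982 of the mouse build NCBIM37 (mm9), spans 320.749 kb and has 16 annotated transcripts. Its members are the cytosines of CpGs that were read in both libraries and lie in this region, 427 of the 826937 such positions in the data, and only 8 genes held more. These 427 positions belonged to 392 CpGs, or 7.52 % of the 5213 CpGs that the genome has in the region. The gene was selected on the percent methylation of these same positions and on its numbers of changed CpGs, so its values are given as a description and no test was made on them.

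Methylation was measured by reduced representation bisulfite sequencing (RRBS), in which the enzyme MspI cuts DNA at CCGG, short fragments are kept and bisulfite turns unmethylated cytosines into uracil, so that a cytosine that resists conversion counts as methylated. The 2 libraries came from wildtype (wt) MEFs and from ESR2 -/- MEFs (βerko MEFs), both of the strain C57BL/6 and both kept in the same medium without any added agent according to the labels. ESR2 is the gene of ERβ, and the libraries addressed which loci are methylated differently when it is missing. DNA of 3 batches was pooled in each library, so each genotype had 1 library, the spread between batches is not known, and a difference between the libraries cannot be told apart from a difference between the cell cultures. In pooled DNA, fewer cells with a methylated allele and less methylation per cell cannot be told apart. Bisulfite does not separate methylcytosine from hydroxymethylcytosine, and the methylation tables hold no measure of the knock-out itself or of fibroblast markers.

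PRDM16 is a zinc finger protein with a PR domain that binds DNA and recruits co-activators, co-repressors and histone methyltransferases. It is best known for directing precursor cells to brown fat rather than skeletal muscle, and it also acts in haematopoietic and neural stem cells and in craniofacial development. CpG-rich start sites are usually unmethylated in mammalian cells, whereas the bodies of genes are mostly methylated at their scattered CpGs. A differentially methylated position (DMP) is, by the criterion of the study, a position with more than 4 reads in both libraries, with methylation below 20 % in wt or βerko MEFs and above 80 % in the other cell type. Hypomethylated DMPs were highly methylated in wt, and hypermethylated DMPs were highly methylated in βerko MEFs.

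The sequences that carry the pattern are shown first, all on the minus strand in the sense of the gene, in lower case with the CpGs of DMPs in capitals and read from NCBIM37. The stretch of intron 1 holds the densest run of hypomethylated DMPs, with 10 DMP CpGs among 35 CpGs, of which 23 were covered. The block of intron 2 that gained the most methylation holds 3 CpGs. The windows of 30 bases show the DMPs of introns 1 to 3 outside the start-site block, losses and gains alike.
intron 1, loss next to the start site, chr4:154009504-154009797: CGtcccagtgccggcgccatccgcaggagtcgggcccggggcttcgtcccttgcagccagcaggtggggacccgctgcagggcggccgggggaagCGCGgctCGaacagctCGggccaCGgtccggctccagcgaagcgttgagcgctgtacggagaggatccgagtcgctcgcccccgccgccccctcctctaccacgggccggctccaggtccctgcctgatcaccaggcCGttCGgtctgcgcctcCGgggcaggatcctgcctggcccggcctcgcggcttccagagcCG
intron 2, gained block, chr4:153895315-153895424: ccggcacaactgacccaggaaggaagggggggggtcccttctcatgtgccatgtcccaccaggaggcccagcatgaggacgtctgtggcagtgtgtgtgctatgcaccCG
intron 2, loss, chr4:153893787-153893816: cacacacactacccCGgtgacagccagcgc
intron 2, loss of 2 CpGs, chr4:153874007-153874036: cacacattgtctgcCGtgccagctccCGga
intron 2, gain, chr4:153874323-153874352: agcaaggggcccccCGgctccggggtgcac
intron 3, loss, chr4:153799547-153799576: ccactagctgtctaCGaaatgctcccggga
intron 3, gain, chr4:153759688-153759717: aaagccaccagggcCGgggtctgctgcagc
intron 1, gain, chr4:153994630-153994659: accggagcctcacaCGcccattgtggcctc

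Over all 427 positions, methylation of Prdm16 averaged 70.4 % in wt and 55.9 % in βerko MEFs, a difference of -14.6 percentage points, and the medians were 77.8 and 71.7 %. Methylation was lower by at least 20 points in βerko MEFs at 171 positions, or 40.05 % (Wilson 95 % confidence interval over positions 35.5 to 44.8 %), beside 10.4 % of all covered positions. It was higher by at least 20 points at 64 positions, or 14.99 % (11.9 to 18.7 %), beside 6.81 % of all covered positions. The other 192 positions lay between these limits. Across all covered positions the means were 40.7 and 38.8 %, with a difference of -1.89 points. The gene held 26 hypomethylated DMPs, 6.09 % of its positions beside 0.7 % of all covered positions, and 5 hypermethylated DMPs, 1.17 % beside 0.237 %. A further 5 positions with a loss were listed by the authors with exactly 4 reads in wt and thus lay just outside the criterion. They were fully methylated in wt and at 0 to 15.8 % in βerko MEFs. At the percentage limits alone, all covered positions held 6016 losses and 2055 gains, the DMP numbers given in the paper. With more than 4 reads, 5787 and 1960 were left. Prdm16 held 31 losses and 5 gains at the percentage limits alone.

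**Figure D1:**
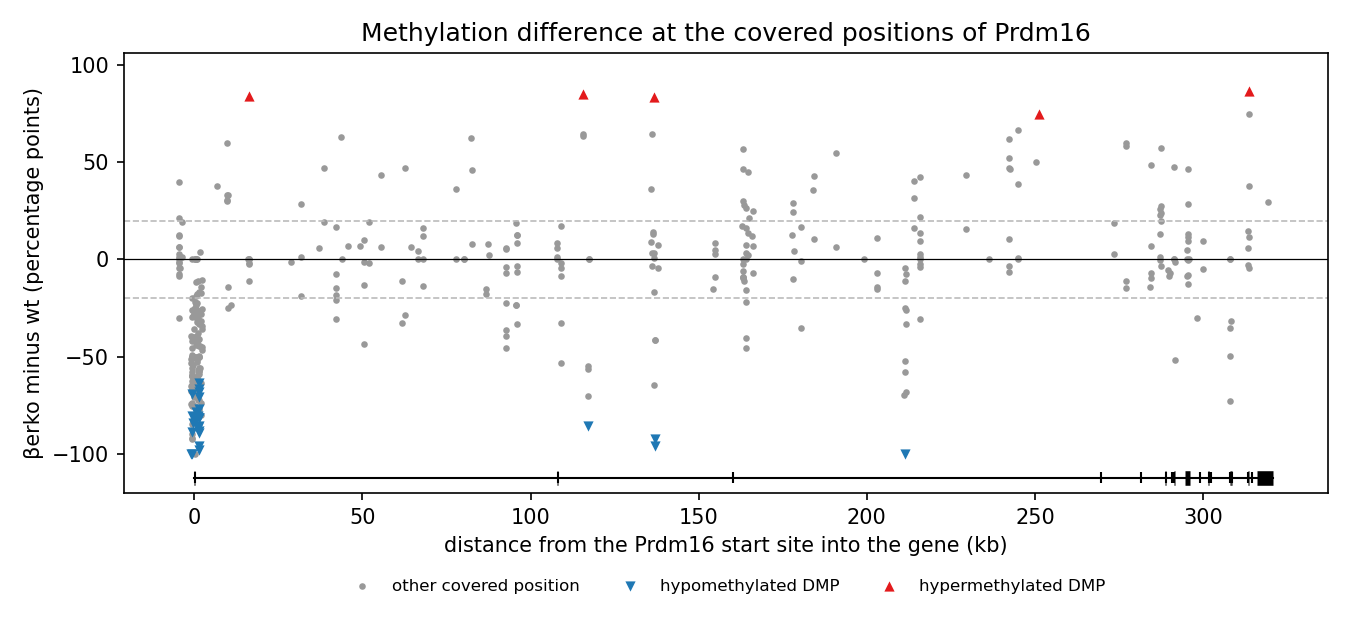
Difference in methylation, βerko minus wt in percentage points, at each of the 427 covered positions of Prdm16 against the distance from the start site in kb, with exons as black bars on the gene line and dashed lines at 20 points either way. A column of losses with 22 hypomethylated DMPs stands at the start site, and 4 hypomethylated and 5 hypermethylated DMPs are scattered over the gene body.

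Most losses lay at the start site, which held 126 of the 171. Positions were joined into blocks where gaps were at most 500 bp and at least 3 positions were present, and the block at the start site, from 154008803 to 154011985, held 141 positions, or 33.02 % of those of the gene. It ran from 1003 bp upstream to 2179 bp downstream of the start site, and its positions averaged 61.8 % methylation in wt and 10.3 % in βerko MEFs, a difference of -51.6 points. Methylation was below wt at 134 of the 141 positions, equal at 6 and above at 1, where it was higher by 3.7 points. This was 154009448 on the plus strand, with 96.3 % in wt and 100 % in βerko MEFs. On the minus strand of the same CpG, 154009449 had 66.7 and 11.0 %, so the strands disagreed there. None of the 141 positions was higher by at least 20 points. In wt, 85 positions were partly methylated (20 to 80 %), 45 were above 80 % and 11 were below 20 %. These were 60.3, 31.9 and 7.80 %, beside 17.2, 32.5 and 50.3 % of all covered positions. In βerko MEFs, 119 positions (84.4 %) were below 20 %, beside 53.4 % of all covered positions, and 47 of the 119 carried no methylated read. The middle range of positions, between the quartiles, was 40 to 83.3 % in wt and 0 to 11.0 % in βerko MEFs, so these ranges did not overlap.

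Methylation in wt was not even across the block. It dipped just downstream of the start site and rose on both sides, while in βerko MEFs the whole centre was almost free of methylation. Between 1000 and 500 bp upstream, 38 positions averaged 68.7 % in wt and 9.62 % in βerko MEFs. The 8 positions in the last 500 bp before the start site averaged 56.9 and 5.80 %. The first 500 bp of the gene held 17 positions with 34.3 % in wt and 0.42 % in βerko MEFs, the lowest means along the block in both libraries. Among these, 154010751 had only 4 reads in wt. All positions from 154010723 to 154010756 had wt values of 0, 25, 50, 75 or 100 %, so the wt mean of this step may rest on few reads. Between 1000 and 500 bp upstream, 154011711, 154011714, 154011721 and 154011744 had only 4 wt reads each and 154011785 had 5. The wt means upstream may thus also rest in part on few reads. From 500 to 999 bp the means of 22 positions were 43.2 and 1.54 %, and from 1000 to 1499 bp those of 36 positions were 70.0 and 6.64 %. The latter step held 14 of the 22 DMPs of the block, most of them in the intron 1 sequence printed above, whose covered positions averaged 72.3 % in wt and 7.68 % in βerko MEFs. Further into intron 1 the libraries came closer: 9 positions from 1500 to 1999 bp had 75.1 and 22.1 %, and 10 positions beyond 2000 bp had 84.0 and 55.2 %. On the other side, the next covered block, from 154015322 to 154015697, was methylated at 67.5 % in wt and 70.4 % in βerko MEFs over 16 positions.

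**Figure D2:**
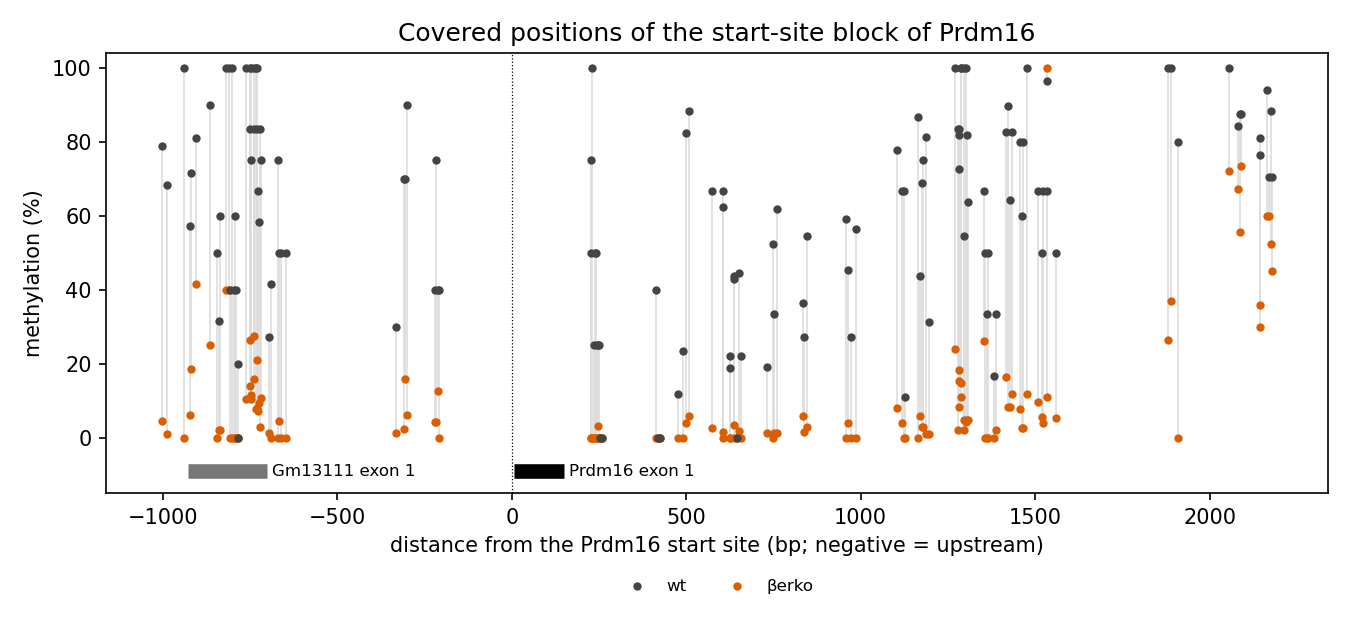
Methylation in percent at the 141 covered positions of the start-site block in wt and βerko MEFs, each pair joined by a grey line, against the distance from the Prdm16 start site in bp, with the first exons of Prdm16 and Gm13111 as bars. The βerko values lie below the wt values at 134 positions, near 0 just downstream of the start site, and rise again beyond 2000 bp.

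The upstream side of this block is shared with Gm13111, a long non-coding RNA gene that is transcribed away from Prdm16 and starts 0.703 kb upstream of it. Its first exon held 30 positions, which averaged 71.6 % in wt and 12.0 % in βerko MEFs. Values of Prdm16 and Gm13111 are therefore partly the same positions, and the mean difference of -43.8 points over the 163 positions assigned to Gm13111 is not a separate observation. No position was covered in exon 1 of Prdm16 itself, the nearest covered positions lying 226 bp downstream and 208 bp upstream of the start site.

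Prdm16 was compared with other genes by the window of 1 kb either side of the start site. Its window held 85 positions with means of 54.1 % in wt and 5.33 % in βerko MEFs. The medians of the 8603 genes with at least 20 positions in this window were 1.07 and 0.741 %. A loss of at least 20 points was found in 327 windows, or 3.8 %. The wt mean of Prdm16 thus lay far above the median window, and the βerko mean lay nearer to it.

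Read counts were deposited only for the positions listed by the authors. At the 22 hypomethylated DMPs of the start-site block, wt had 5 to 29 reads with a median of 10.5, and βerko had 5 to 110 reads with a median of 63. Their methylation was 81.2 to 100 % with a median of 87.5 % in wt and 0 to 18.3 % with a median of 6.05 % in βerko MEFs. The exact 95 % intervals of the libraries cover counting error only, because each genotype had 1 library of pooled DNA. PCR copies were not marked, so reads may not be separate molecules and the intervals may be too narrow. The intervals did not overlap at 21 of the 22, but the DMP criterion already sets the libraries apart, here and at the DMPs below. Neighbouring DMPs on a strand can also share reads, so the 22 are not separate counts. The exception at 154011785 had 5 reads in each library, all methylated in wt and none in βerko MEFs, with intervals of 47.8 to 100 % and 0 to 52.2 %. The deepest wt values, with 29 reads each, were in intron 1: at 154009560, methylated reads made up 89.7 % of 29 in wt (72.6 to 97.8 %) and 8.18 % of 110 in βerko MEFs (3.81 to 14.96 %). At the upstream end, methylated reads at 154011921 made up 100 % of 21 in wt and 0 % of 65 in βerko MEFs. The reads were more numerous in βerko MEFs at 21 of the 22, with a median ratio of 6.55, beside 1.87 at all hypomethylated DMPs of the data. The part of this difference in depth in the loss was not tested.

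A CpG read on both strands gives 2 separate values within a library and so a measure of error. Prdm16 had 35 such CpGs, at which the strands differed by a median of 10.1 points in wt and 4.57 points in βerko MEFs, beside 1.80 and 1.35 points at all such CpGs. In the start-site block, 16 CpGs had a median strand difference of 16.7 points in wt and 3.60 points in βerko MEFs. The loss there averaged -57.8 points on the plus strand and -69.5 points on the minus strand. Strand agreement measures error within a library only and holds nothing of the spread between cultures or batches. Of 15 CpGs that were lower by at least 20 points on the plus strand, 14 were so on both, beside 5466 of 8005 in all the data. In the rest of the gene, 4 CpGs were higher by at least 20 points on the plus strand and 2 of them on both, beside 2048 of 3612. No CpG of the gene was lower on the plus strand and higher on the minus strand by this limit. This was also rare in all the data, at 78 of the 8005 CpGs lower on the plus strand.

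Outside the start-site block the direction of the mean was the opposite. The other 286 positions averaged 74.7 % in wt and 78.4 % in βerko MEFs, a difference of +3.69 points, with 45 positions lower by at least 20 points (15.7 %, 12.0 to 20.4 %) and 64 higher (22.4 %, 17.9 to 27.6 %). All 64 gains of the gene lay here, as did 4 hypomethylated and all 5 hypermethylated DMPs. Fully methylated positions, above 80 %, numbered 159 in wt (55.6 %) and 185 in βerko MEFs (64.7 %), beside 32.5 and 31.5 % of all covered positions. Partly methylated ones numbered 115 and 84 (40.2 and 29.4 %), beside 17.2 and 15.1 %. The largest change of class was from partly methylated in wt to fully methylated in βerko MEFs, at 57 positions, against 32 that went the other way.

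The gains were most frequent where CpGs were sparse. With 0 to 4 other CpGs within 100 bp, 38 of 129 positions of Prdm16 (29.5 %) were higher by at least 20 points, and the mean was 71.0 % in wt and 81.9 % in βerko MEFs. With 5 to 9 other CpGs, 20 of 103 positions (19.4 %) were higher. With 10 or more, 6 of 54 positions outside the start-site block (11.1 %) were higher. Over all covered positions the same 3 classes had 15.3, 9.65 and 2.59 %, so the decline with CpG density was also present in the data as a whole.

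By intron, numbered on the transcript Prdm16-001 with 17 exons, the balance of losses and gains differed. Intron 1 outside the start-site block had means of 78.1 % in wt and 81.7 % in βerko MEFs over 81 positions. Intron 2 was lower, with 79.3 and 72.3 % over 38 positions, and intron 3 was higher, with 66.8 and 73.0 % over 87 positions. In intron 5, 15 positions had means of 76.6 and 90.7 %, and 0 of them were lower by at least 20 points. Exon 9, the longest covered internal exon, was highly methylated in both libraries, with 87.0 and 94.2 % over 12 positions, whereas the 6 positions of exon 13 averaged 93.3 and 61.8 %.

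Prdm16 had 39 blocks in all, which held 384 of its positions. The mean of 4 blocks was lower by at least 20 points (10.3 %, beside 6.75 % of all blocks in the data) and that of 10 was higher (25.6 %, beside 5.4 %). Of the 39 blocks, 22 had a mean difference above 0 and 17 below, with a median of +3.66 points. The start-site block counts as 1 among them, so the mean of the block differences was +3.52 points, opposite in sign to the mean over positions. Both a position lower and a position higher by at least 20 points were present in 6 blocks (13.2 % of all blocks in the data had both).

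**Figure D3:**
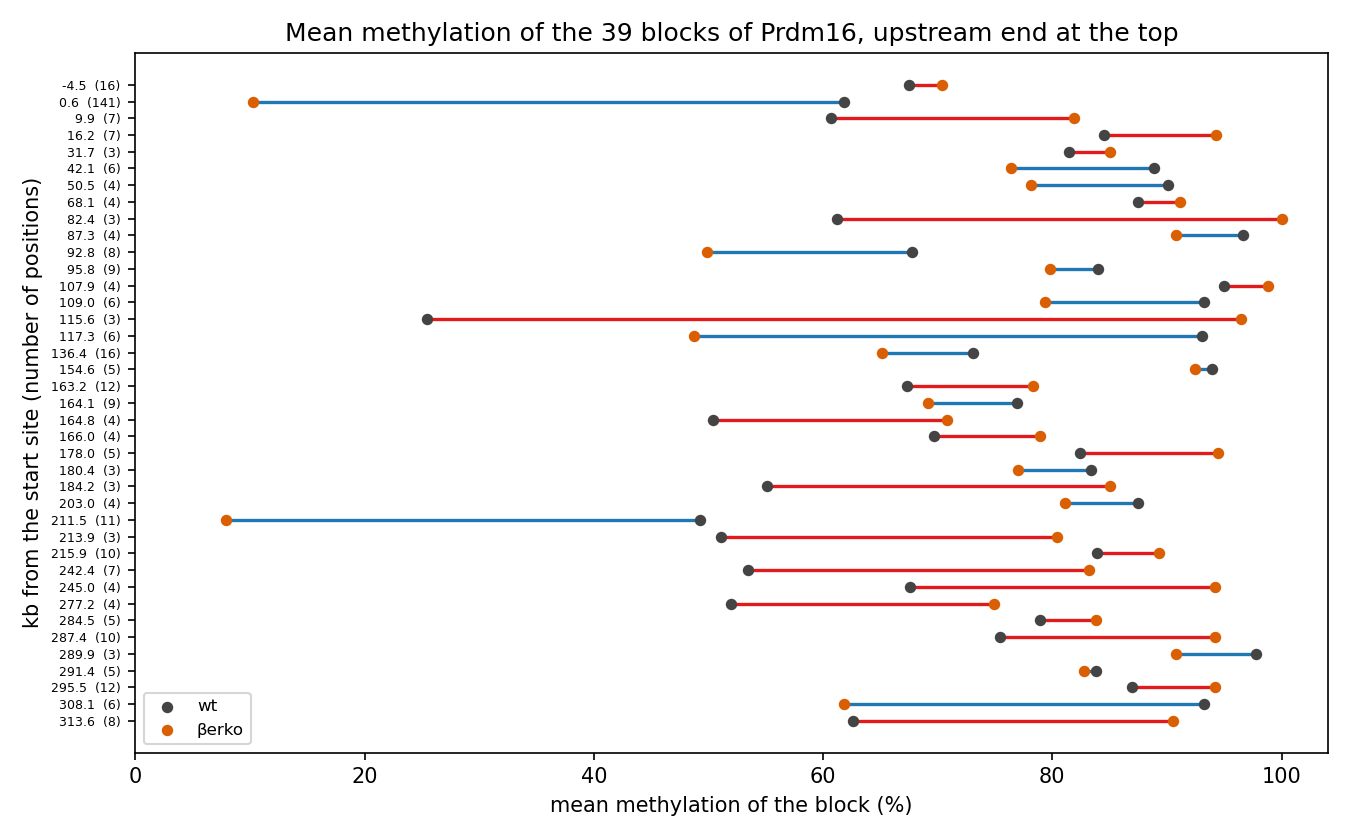
Mean methylation in percent of each of the 39 blocks of Prdm16 in wt and βerko MEFs, ordered from the upstream end to the last exon, with the distance from the start site in kb and the number of positions in brackets. Blue lines mark blocks lower in βerko MEFs and red lines blocks higher; the start-site block had 61.8 and 10.3 %, and a block in intron 2 had 25.5 and 96.5 %.

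After the start-site block, the largest losses were in a block of intron 2 from 153893521 to 153893822, with means of 93.1 % in wt and 48.7 % in βerko MEFs over 6 positions, and in a block of intron 3 from 153799214 to 153799835, with 49.2 and 7.96 % over 11 positions. In the latter, all 11 positions were lower in βerko MEFs. The block of exon 13 followed, with a difference of -31.4 points, and a block of intron 1 from 153918168 to 153918280 had means of 67.8 and 49.9 % over 8 positions. In that last block, 6 positions were below wt and 2 above.

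The largest gain was in intron 2, from 153895315 to 153895423, the block whose sequence is printed above. Its 3 positions were at 15 to 36.4 % in wt and at 89.5 to 100 % in βerko MEFs. The next gain, in intron 1 from 153928396 to 153928825, had means of 61.2 and 100 %, with 3 positions at 37.5 to 92.3 % in wt. The other 3 of the 5 largest gains were in intron 3, at 153826717 to 153826859, 153768534 to 153768713 and 153797066 to 153797085. Their mean differences were +29.9, +29.8 and +29.3 points over 3, 7 and 3 positions, and wt levels ranged from 51.1 to 55.1 %. These blocks were small, and coverage was deposited for their DMPs only.

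The 4 hypomethylated DMPs of the gene body outside the start-site block had median depths of 18.5 (wt) and 47.5 reads (βerko). At 153874009 in intron 2, methylated reads made up 100 % of 25 in wt and 4.17 % of 48 in βerko MEFs. At 153874021, in the neighbouring CpG, they made up 92 % of 25 reads and 0 % of 48 reads. The position 153893802 in intron 2 had 91.7 % of 12 reads and 6.38 % of 47 reads. On the plus strand of this CpG, 153893801 had 100 % in wt and 45.5 % in βerko MEFs, with unknown reads. The position 153799561 in intron 3 had 100 % of 8 reads and 0 % of 45 reads. The exact intervals of the libraries did not overlap at any of these 4 DMPs.

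The 5 hypermethylated DMPs were spread over introns 1 to 3 and exon 15. At 153895315 in intron 2, methylated reads made up 15 % of 20 in wt and 100 % of 39 in βerko MEFs. The position 153697360 in exon 15 had 5.26 % of 19 reads and 92 % of 25 reads. On the plus strand of this CpG, 153697359 had 40 % in wt and 77.8 % in βerko MEFs, with unknown reads. The position 153759703 in intron 3 had 7.69 % of 26 reads and 82.6 % of 23 reads. At these 3 DMPs, both libraries had at least 19 reads and the exact intervals lay apart. The position 153994645 in intron 1 had 0 % of 14 reads and 83.7 % of 49 reads, and the position 153874337 in intron 2 had 16.7 % of 6 reads and 100 % of 8 reads. At the latter the intervals overlapped, from 0.421 to 64.1 % in wt and from 63.1 to 100 % in βerko MEFs.

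**Figure D4:**
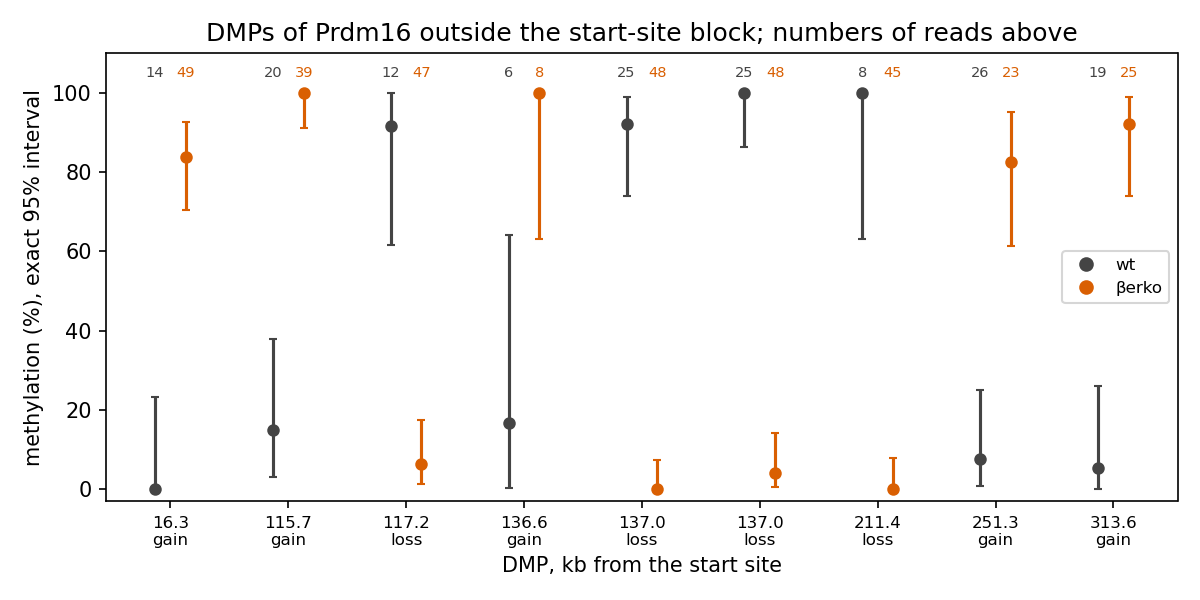
Methylation in percent with exact 95 % intervals in wt and βerko MEFs at the 9 DMPs of Prdm16 outside the start-site block, by distance from the start site in kb, with the number of reads of each library above. The intervals of the libraries lie apart at 8 of the 9 DMPs and overlap at the gain with 6 and 8 reads.

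Losses and gains could lie close together. In intron 2, the gain at 153895315 lay 1513 bp from the loss at 153893802, and the gain at 153874337 lay 316 bp from the loss at 153874021, within a single block of 16 positions. The other 3 gains were 14.9 to 102 kb from the nearest hypomethylated DMP. All 26 hypomethylated DMPs had covered positions within 100 bp, and at all 26 these were lower on average by at least 31.6 points. Of the 26, 22 lay in the start-site block and had many neighbours in common, so they are not separate cases. Outside it, 153874009 and 153874021 were among each other's neighbours. The same count of neighbours was not made over all DMPs of the data, for losses or gains. Of the 5 hypermethylated DMPs, 4 had such neighbours, which were higher on average by at least 20 points at 2, namely 153895315 and 153697360. At 153994645 the 2 neighbours averaged 100 % in wt and 93.4 % in βerko MEFs, and at 153874337 the 3 neighbours averaged 81.0 and 76.9 %, so these gains stood alone among the covered positions.

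Of the 5 hypermethylated DMPs, 4 (80 %) lay in CCGG, the site at which MspI cuts and at which end repair fills in bases before bisulfite treatment. In all hypermethylated DMPs this share was 71.7 %, in all hypomethylated DMPs 44.3 %, and in all covered positions 39.1 %. Of the 26 hypomethylated DMPs of Prdm16, 5 (19.2 %) lay in CCGG. In the start-site block, the mean difference was -48.9 points at the 32 positions in CCGG and -52.3 points at the 109 others, so the loss was present in both. Outside the block, 29 of 159 positions in CCGG (18.2 %) and 35 of 127 others (27.6 %) were higher by at least 20 points, so gains of this size were not confined to the cutting sites. The part of the cutting sites in the single gains was not tested.

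Words bound by known factors were counted within 100 bp of the DMP CpGs on both strands. The palindromic oestrogen response element with its spacer of 3 bases was found at 0 of the 23 hypomethylated and 0 of the 5 hypermethylated DMP CpGs, and so was the form with a spacer of 2 bases. They are rare, at 0.0206 and 0.0399 % of all covered CpGs. The word GCCNNNGGC, which is bound by AP2 factors, was found at 8 of 23 hypomethylated and 0 of 5 hypermethylated DMP CpGs, beside 22.3 % of all covered CpGs. All 8 lay in the CpG-rich start-site block, and none of the hypomethylated DMPs outside it had the word. Several of the 8 lay a few bases apart and can share a word, so they are not separate sites. The E-box CAGCTG was found at 1 of 23 and 1 of 5, beside 12.0 %.

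The surroundings of the gene were described in the same way. Over the 300 kb beyond its last exon, 412 positions averaged 48.2 % in wt and 43.6 % in βerko MEFs, and over the 300 kb beyond its upstream region 199 positions averaged 63.5 and 61.6 %. Within these flanks and the gene, 14 other genes had at least 10 positions, with a median difference of -1.69 points. Lower by at least 10 points were 2 of them, beside 9.95 % of all genes with at least 10 positions, namely Gm13111, which shares the start site, and Arhgef16, a guanine nucleotide exchange factor gene 14.4 kb beyond the last exon. Arhgef16 had means of 76.1 % in wt and 54.9 % in βerko MEFs over 62 positions, with 6 hypomethylated and 2 hypermethylated DMPs. Higher by at least 10 points were also 2, beside 2.09 % of all genes, the non-coding genes Gm13116 with +15.4 points and Gm13112 with +14.9 points. Among named protein-coding neighbours, Megf6 had means of 59.3 and 59.9 %, Trp73 of 33.1 and 29.1 %, Wdr8 of 18.1 and 14.3 %, and Ttc34 of 51.1 and 41.8 %.

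Within the PRDM family, which shares the PR domain, 14 of 15 genes had at least 10 positions. Of the 13 besides Prdm16, 2 were lower by at least 10 points and 0 were higher, beside 9.95 and 2.09 % of all genes with at least 10 positions. Their median difference was -1.31 points, beside -0.49 points over all genes. Prdm14, a regulator of pluripotency and germ cells, had means of 57.4 % in wt and 33.05 % in βerko MEFs over 39 positions and 0 DMPs. Prdm13, a regulator of neuronal fate, had 30.0 and 16.4 % over 172 positions with 3 hypomethylated DMPs. Prdm16 had the highest mean methylation in wt of the 14. Its 26 hypomethylated DMPs, 6.09 % of its positions beside 0.7 % of all covered positions, stood beside 7 in the 13 others together. Prdm16 was selected on its number of changed CpGs, so this contrast in part follows from the selection.

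Of 13 genes for proteins that act with PRDM16 in brown fat, 12 had at least 10 positions, with a median difference of -0.10 points. Lower by at least 10 points were 2 of the 12 and higher 0, against the same 9.95 and 2.09 % of all genes. Cebpa, a driver of adipocyte differentiation, had means of 34.6 % in wt and 14.4 % in βerko MEFs over 105 positions with 8 hypomethylated DMPs. Pparg, the master regulator of adipocytes, had 49.0 and 31.2 % over 50 positions and 0 DMPs. Of 7 brown fat targets only Adrb3 and Cidea had at least 10 positions, and neither moved by 10 points. Those of the others that were covered had 4 to 6 positions each, with mean differences from -12.5 points in Cox8b to +14.7 points in Dio2. Of 5 muscle genes of the alternative fate, 3 had at least 10 positions and 1 of them was lower by at least 10 points, against 9.95 % of all genes. This was Pax7, which marks muscle stem cells, with means of 32.6 and 21.4 % over 175 positions, 4 hypomethylated and 2 hypermethylated DMPs. Methylation does not show whether any of these genes was expressed, and expression was not analysed here.

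Among the 1660 genes with at least 100 positions, Prdm16 ranked 13th by the number of hypomethylated and 10th by the number of hypermethylated DMPs, counts that grow with the number of positions covered. Both its share of positions lower and its share higher by at least 20 points were matched or exceeded together in 2 genes, Six2 and Gm2301, which were named after their values were seen. Likeness was measured as the distance in percentage points over mean methylation in wt, mean methylation in βerko MEFs and these 2 shares, for which the median gene lay 57.7 points from Prdm16. The 5 nearest genes were Hs3st2 (5.77 points), a heparan sulfate sulfotransferase gene, Cdh4 (7.22), a cadherin gene, Myrip (7.39), Ajap1 (8.0) and Sdk2 (13.7). All 5 had start-site windows that were methylated in wt, with means from 67.3 to 74.8 %, and lower in βerko MEFs, with means from 33.9 to 47.1 %. The βerko level of the Prdm16 window, 5.33 %, lay below all of these. They held 1, 0, 5, 4 and 3 hypomethylated DMPs, in the same order, against 26 in Prdm16. Their hypermethylated DMPs numbered 0, 1, 0, 5 and 0, against 5 in Prdm16. These counts came from 119, 291, 126, 247 and 286 positions, against 427 in Prdm16. Prdm16 was also selected on its number of changed CpGs.

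**Figure D5:**
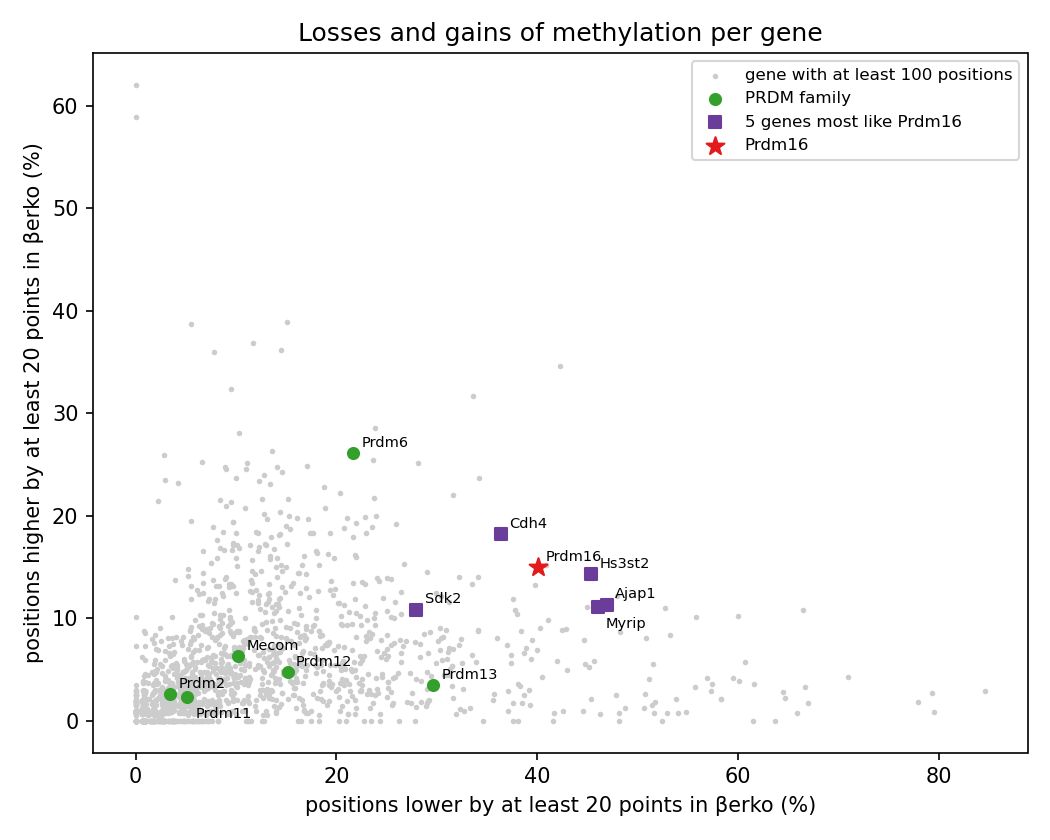
Share of positions lower against share of positions higher by at least 20 points in βerko MEFs, both in percent, for the genes with at least 100 covered positions, with Prdm16, other members of the PRDM family and the 5 genes most like Prdm16 marked. Prdm16 lies at 40.05 % lower and 14.99 % higher, and its family members of this coverage lie at lower shares of losses.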

How the data were processed

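RRBS libraries of wt and βerko MEFs, 1 per genotype with DNA of 3 batches pooled in each, were analysed. For mapping, the authors used the Genomatix Mining Station (version not given in the sources used here), and the submitters' processing notes name CASAVA 1.4 and mm9. The authors deposited percent methylation, without depth, for cytosines read in both libraries, and for DMPs the read counts per position and library with an annotation made with RegionMiner. All 826937 positions were CpG cytosines of NCBIM37, so that coordinates could be used.

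From these tables, positions were assigned to Prdm16 with the GENCODE vM1 gene models on NCBIM37, with 5 kb upstream. DMPs needed more than 4 reads in both libraries. Methylated reads at DMPs were rebuilt from percent methylation and read counts. Intervals of shares are Wilson intervals at 95 % over positions. They treat positions as independent, although neighbouring positions can share reads and change together. Intervals of single positions are exact binomial intervals at 95 % and for counting error of reads only. Coverage was 5 to 29 reads in wt and 5 to 110 reads in βerko MEFs at the hypomethylated DMPs of the gene. At the hypermethylated DMPs it was 6 to 26 and 8 to 49 reads. The positions listed with 4 reads in wt had 31 to 38 reads in βerko MEFs. Coverage is unknown at other positions of the gene. No test was made, because there was 1 library per genotype and the gene was chosen in the same comparison. The gene, the gene lists and the definitions were chosen with earlier results of these data known. Named were the DMPs of the 5 blocks with the largest loss and the 5 with the largest gain, all hypermethylated DMPs, the 5 most like genes, listed genes with at least 10 positions and a mean difference of at least 10 points, and neighbours within 300 kb. Other DMPs of the gene, Adrb3, Cidea, Cox8b, Dio2, Six2 and Gm2301 lie outside this rule and were named after their values were seen. Strands, the extent of the gene, the size of change, the reads of DMPs and the definitions of blocks and likeness were varied. The block and DMP procedures were tested on simulated data. SciPy 1.17.1, pandas 2.3.3, NumPy 2.4.6 and matplotlib 3.10.9 were run under Python 3.11.15.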

Additional observations from a re-analysis of the deposited data

How the results depend on the processing

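The mean difference of Prdm16, -14.6 points, was -13.3 points with strands merged, -9.81 in the gene body alone and -10.01 over the span of the authors' annotation, and changed sign with 1 value per block (+3.52). The share of lower positions, 40.05 %, was 34.3 % in the gene body alone, 34.3 % over the authors' span, 10.3 % with 1 value per block, and 47.1 and 34.0 % for changes of at least 10 and 30 points. The share of higher positions, 14.99 %, was 25.6 % with 1 value per block and 23.0 and 11.5 % for changes of 10 and 30 points. The 26 hypomethylated DMPs became 15 with at least 10 reads and 8 at limits of 10 and 90 %, where 1 of 5 hypermethylated DMPs was left. With gaps of at most 100 bp, 13 blocks were lower, 8 of them inside the start-site block, which such gaps split; with at least 5 positions, 3 blocks were higher. Of the 5 most like genes, 1 was kept with at least 50 positions, 3 with at least 200 and 3 by mean methylation alone. Chosen after seeing the data, leaving out the start-site block gave a mean difference of +3.69 points with 15.7 % lower and 22.4 % higher, and leaving out CpGs within CCGG gave -21.7 points, 49.6 % lower and 1 hypermethylated DMP. The other 19 values kept their direction and stayed within the interval of the share or within 1.5 times the count. With 1 library per genotype, no replicate could be left out. Depth limits single positions of the start site in wt, where most DMPs had few reads, and is unknown at positions that the authors did not list.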
